A study of Mus musculus with 24 samples.

Results

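The genes described here are the clustered histone genes of the mouse, taken as every gene in the deposited FPKM table whose GENCODE M21 symbol starts with Hist1h, Hist2h, Hist3h or Hist4. The rule found 60 genes of the 9420 in the table: 5 linker histone (H1) genes and 55 core histone genes, of which 16 encode H2A, 15 encode H2B, 11 encode H3 and 13 encode H4. GENCODE M21 holds 70 such symbols, and the other 10, among them the testis H1 gene Hist1h1t, were not analysed here. On GRCm38, 49 of the 60 lie on chromosome 13, 8 on chromosome 3, 2 on chromosome 11 and 1 on chromosome 6. All 5 linker genes lie on chromosome 13.

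Histones are the proteins that DNA is wound on: the core histones H2A, H2B, H3 and H4 form the nucleosome, and the linker histone H1 binds where DNA enters and leaves it. Most clustered histone genes are replication-dependent, which means that their mRNA is made mainly while DNA is copied in S phase. These mRNAs typically end in a conserved stem-loop in place of a poly(A) tail. The stem-loop-binding protein SLBP binds it and takes part in 3′ end formation, translation and turnover of the mRNA. Effector T cells divide quickly after their first activation, and histone mRNA is abundant in dividing cells.

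The cells were Th1 effector cells, described as peripheral CD4+ T cells taken with CD4 beads, from DO11.10 mice, a strain with a transgenic T cell receptor; age and sex are not given in the labels. They were restimulated through CD3 and CD28 with soluble antibodies over a plate coated with an anti-hamster antibody, and the 0 h samples are the start of this time course. Newly transcribed RNA (NT) was labelled for 1 h with 200 µM 4-thiouridine (4sU) and purified, with libraries at 0 h (2), 1 h (2), 2 h (1), 3 h (1) and 4 h (2). Total RNA was sequenced at 0 h (2), 1 h (1), 2 h (1) and 4 h (2). Ribosome footprints (RP) were sequenced at 0 h (2), 0.5 h (1), 1 h (2), 2 h (1) and 4 h (2). A further pair of newly transcribed libraries, 1 at 0 h and 1 at 0.5 h, used 0.5 h of labelling at 500 µM. Total and 4sU RNA were depleted of rRNA, not selected for poly(A), so mRNAs that end in a stem-loop were kept. Nothing in the labels ties a replicate to a mouse or culture of its own, and each p-value therefore covers the library-to-library spread alone, which may be technical.

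Across the 24 libraries the depth that the steps between low FPKM values imply could be worked out for 12 and ran between 4.89 and 26.37 M reads. The 8 T cell and Th1 markers were all present, and Ifng, the cytokine that defines Th1 cells, was at 7580 and 2368 FPKM in 4 h NT libraries and 101 and 45.4 FPKM in 0 h NT libraries. No other marker of this list was higher at 4 h in both NT replicates. Il12rb2 was at 41.4 and 111 FPKM at 4 h in NT, against 47.0 and 63.4 FPKM at 0 h. Tbx21 was at 162 and 117 FPKM at 4 h, against 140 and 146 FPKM at 0 h. The replicates of both genes thus went opposite ways. Cxcr3 was at 3.30 and 5.49 FPKM at 4 h in NT, against 59.7 and 38.5 FPKM at 0 h. Il18r1, Cd3d, Cd3e and Cd4 were also lower at 4 h in both NT replicates. Summed levels of 5 CD8 T cell markers were 60.5 to 174 FPKM in 4 h NT libraries and 17.2 to 133 FPKM in 0 h NT libraries, with replicate 1 above replicate 2 at both times. In Total RNA they were 43.0 to 361 FPKM at 4 h and 20.1 to 302 FPKM at 0 h. In RP they were 150 to 1117 FPKM at 4 h and 96.7 to 1047 FPKM at 0 h. Replicate 1 was again higher in both kinds. Single CD8 markers differed from the sums. Gzma made up most of the replicate 1 sum in NT, at 105 FPKM at 4 h, against 1.46 FPKM in replicate 2. Eomes went the other way in NT at 4 h, at 14.4 FPKM in replicate 1 and 37.1 FPKM in replicate 2. It was at 1.59 FPKM at 0 h in replicate 2, and supplied most of the rise of that sum. Gzmk was lower at 4 h in both NT replicates, and Cd8b1 in replicate 1. The 4 B cell markers summed to 1.84 to 2.04 FPKM at 4 h and 4.19 to 17.3 FPKM at 0 h in NT, the 2 of 5 myeloid markers in the table to 2.02 to 6.05 and 2.61 to 18.6 FPKM, and the 1 of 3 NK markers in the table, Klrd1, to 1.57 to 2.19 and 9.47 to 14.96 FPKM. None of these markers was listed at 0 in a 4 h or 0 h NT library. Their part in the histone results was not tested. In bulk libraries, fewer cells of a type and less RNA per cell cannot be told apart.

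The stem-loops are shown first because they are what sets these mRNAs apart. A match to the histone 3′ stem-loop consensus was found in the GENCODE transcripts of 41 of the 60 genes: 3 of 5 H1, 10 of 16 H2A, 8 of 15 H2B, 8 of 11 H3 and 12 of 13 H4 genes. Of the 19 models with no match, 12 end at the stop codon, so no match there says only that the model holds no such letters. Below, the 16 bases of the stem-loop are in capitals with 5 flanking bases on each side, written 5′ to 3′ as DNA. The coordinates are those of the capitals on GRCm38.
Hist1h1c (H1), chr13:23739512-23739527, plus strand: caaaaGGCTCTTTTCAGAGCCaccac
Hist2h2ac (H2A), chr3:96220418-96220433, minus strand: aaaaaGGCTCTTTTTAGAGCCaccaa
Hist1h2bb (H2B), chr13:23747203-23747218, plus strand: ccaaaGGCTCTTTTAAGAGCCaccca
Hist1h3b (H3), chr13:23752820-23752835, plus strand: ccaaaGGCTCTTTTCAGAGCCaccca
Hist1h4f (H4), chr13:23551291-23551306, minus strand: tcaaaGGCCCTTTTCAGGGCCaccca
Hist1h4j (H4), chr13:21735437-21735452, plus strand: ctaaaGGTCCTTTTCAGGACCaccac

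The stem differed by class. All 29 loops of H1, H2A, H2B and H3 genes opened with GGCTC, while the 12 H4 loops opened with GGCCC (10 genes) or GGTCC (2 genes). The most frequent loop, that of Hist1h1c and Hist1h3b, was found in 22 genes of these non-H4 classes, and the loop of Hist1h4f in 7 genes, all H4.

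The upstream regions of a linker, an H2B and an H4 gene are printed because they hold, or lack, exact matches to promoter elements that histone genes are known for. RefSeq promoters (GRCm38.p6) could be matched to 54 of the 60 genes, and motifs were searched in the 250 bases before the annotated start. CCAAT, bound by the factor NF-Y, was searched on both strands; TATAAA on the sense strand; and the octamer ATTTGCAT, bound by POU factors such as OCT1, on both strands. Each was counted on its own, and matches of different motifs could overlap. The last 120 bases before the start are given with matches in capitals, and those of Hist1h4f hold none. Only exact letters were searched, so a promoter with no match may still hold a variant of an element. The printed Hist1h4f bases include tatatata, which TATAAA does not match.
Hist1h1a, chr13:23763548-23763667, plus strand: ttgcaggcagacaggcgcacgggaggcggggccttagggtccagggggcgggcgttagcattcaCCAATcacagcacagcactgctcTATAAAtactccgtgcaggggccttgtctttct
Hist1h2bb, chr13:23746614-23746733, plus strand: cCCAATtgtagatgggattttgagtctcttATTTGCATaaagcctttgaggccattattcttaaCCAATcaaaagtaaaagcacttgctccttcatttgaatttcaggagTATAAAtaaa
Hist1h4f, chr13:23551669-23551788, minus strand: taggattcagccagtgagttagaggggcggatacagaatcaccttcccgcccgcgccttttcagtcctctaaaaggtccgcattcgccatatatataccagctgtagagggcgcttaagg

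CCAAT was present in 44 of the 54 histone promoters, against 34.46% of the 27025 promoters in the RefSeq table. It was in 5 of 5 H1, 15 of 15 H2A, 13 of 13 H2B and 8 of 9 H3 promoters, but in 3 of 12 H4 promoters. TATAAA was in 23 of 54 (all promoters 8.12%), including 4 of 5 H1 promoters. The octamer was in 10 of 54 (all promoters 1.61%): 5 H2A and 5 H2B promoters, and none of the H1, H3 or H4 promoters. These matches are descriptions of the letters, not of binding.

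Histone genes made up a large part of all FPKM before stimulation and a smaller part after it. In NT they held 13.8% (replicate 1) and 11.8% (replicate 2) of the summed FPKM of the table at 0 h, 9.74% and 7.51% at 1 h, 8.22% at 2 h, 6.51% at 3 h, and 8.47% and 3.51% at 4 h. In Total RNA the share was 7.08% and 6.96% at 0 h, 6.32% at 1 h, 4.75% at 2 h, and 4.33% and 3.77% at 4 h. In RP it was 29.6% and 30.6% at 0 h, 25.4% at 0.5 h, 21.8% and 24.98% at 1 h, 22.02% at 2 h, and 15.1% and 19.3% at 4 h. Both 4 h libraries lay below both 0 h libraries in each kind. FPKM divides by gene length, and histone genes are short, so these shares are larger than the shares of reads. The length that the values imply also differed between RP and RNA libraries, so shares are not on the same scale in those kinds.

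**Figure D1:**
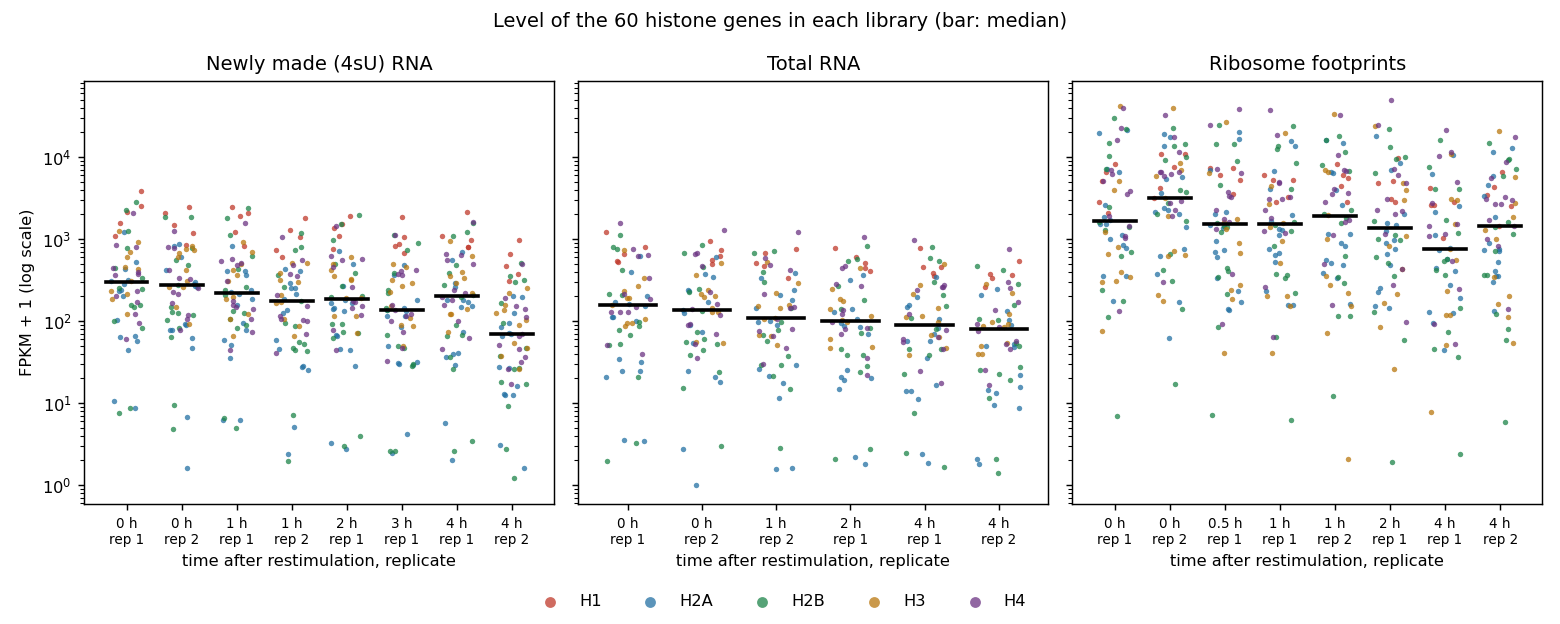
Level of each of the 60 histone genes (points, coloured by class) in every NT, Total and RP library, as FPKM + 1 on a log axis, by hours after restimulation and replicate number; bars are medians. The median member was at 199 and 68.1 FPKM in 4 h NT libraries against 295 and 271 FPKM at 0 h.

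Set against the 0 h library of the same replicate number, the summed FPKM of the 60 genes in NT was 78.2% and 63.5% at 1 h, 65.9% at 2 h, 47.9% at 3 h and 64.1% and 28.7% at 4 h, replicate 1 first where there are 2. In Total RNA it was 84.7% at 1 h, 68.6% at 2 h, and 62.3% and 51.8% at 4 h. The RP sum was 83.5% at 0.5 h, 72.7% and 75.8% at 1 h, 79.5% at 2 h, and 43.9% and 54.3% at 4 h. The replicate 4 h NT libraries did not match each other: the median member was 1.51 higher on the log2(FPKM + 1) scale in replicate 1 than in replicate 2, and 53 of 60 members differed by more than 2-fold, against 5.96% of all genes. Every NT result at 4 h rests on this pair.

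The 4 h to 0 h comparison was tested with limma on log2(FPKM + 1) over all genes with a mean of at least 1 FPKM in that kind of library; a gene is called at an adjusted p below 0.05 (Benjamini-Hochberg over all genes tested). All 60 members passed the filter in each kind. The log2(FPKM + 1) scale understates the change of genes with low values. In NT, 11 of 60 members (18.3%) fell and 0 rose; the share that fell is near the background, since 18.9% of the 9278 genes tested fell and 14.4% rose. In Total RNA, 17 of 60 (28.3%) fell and 0 rose, against 7.02% and 6.47% of 9078 genes. In RP, 7 of 60 (11.7%) fell and 0 rose, against 12.9% and 12.1% of 9312 genes, so the share that fell is again near the background. By sign alone, 59, 58 and 56 of the 60 were lower at 4 h in NT, Total RNA and RP, where 58.5%, 57.3% and 55.6% of all genes tested were. The median member change was -1.27 in NT, -0.81 in Total RNA and -1.23 in RP, and the median of all genes was -0.16, -0.10 and -0.10.

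Libraries of the same replicate number deviated together, and a fit with the replicate number as a block gave more calls. With the block, 49 members (81.7%) fell in NT, against 35.4% of all genes; 52 (86.7%) fell in Total RNA, against 23.3%; and 37 (61.7%) fell in RP, against 26.7%. None rose, where 23.3%, 16.6% and 21.3% of all genes did. The members called without the block, 11, 17 and 7, were all called with it. The Total RNA fit with the block has 1 residual degree of freedom and leans on the spread estimated over all genes. Without any fit, both 4 h libraries were below both 0 h libraries for 44 members in NT (73.3%; all genes 42.3%), 44 in Total RNA (73.3%; all genes 36.7%) and 37 in RP (61.7%; all genes 36.8%), and no member had both 4 h libraries above both 0 h libraries in NT, Total RNA or RP, where 28.5%, 25.4% and 29% of all genes did.

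The counts without the block depended on single libraries. In NT, 35 members were called without the 4 h replicate 1 library, 4 without the 4 h replicate 2 library, and 3 without either of the 0 h libraries in turn. In Total RNA the count was 7 without the 0 h replicate 1 library and 1 without each of the other 3. The RP count was 10 without the 4 h replicate 2 library, 2 without the 0 h replicate 2 library, 1 without the 0 h replicate 1 library and 0 without the 4 h replicate 1 library. Within replicate 1 the median member difference between 4 h and 0 h in NT was -0.58, with 10 members at least 2-fold lower, and within replicate 2 it was -1.99, with 57 members at least 2-fold lower. In Total RNA the within-replicate medians were -0.79 and -0.84, and in RP they were -1.30 and -1.06.

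**Figure D2:**
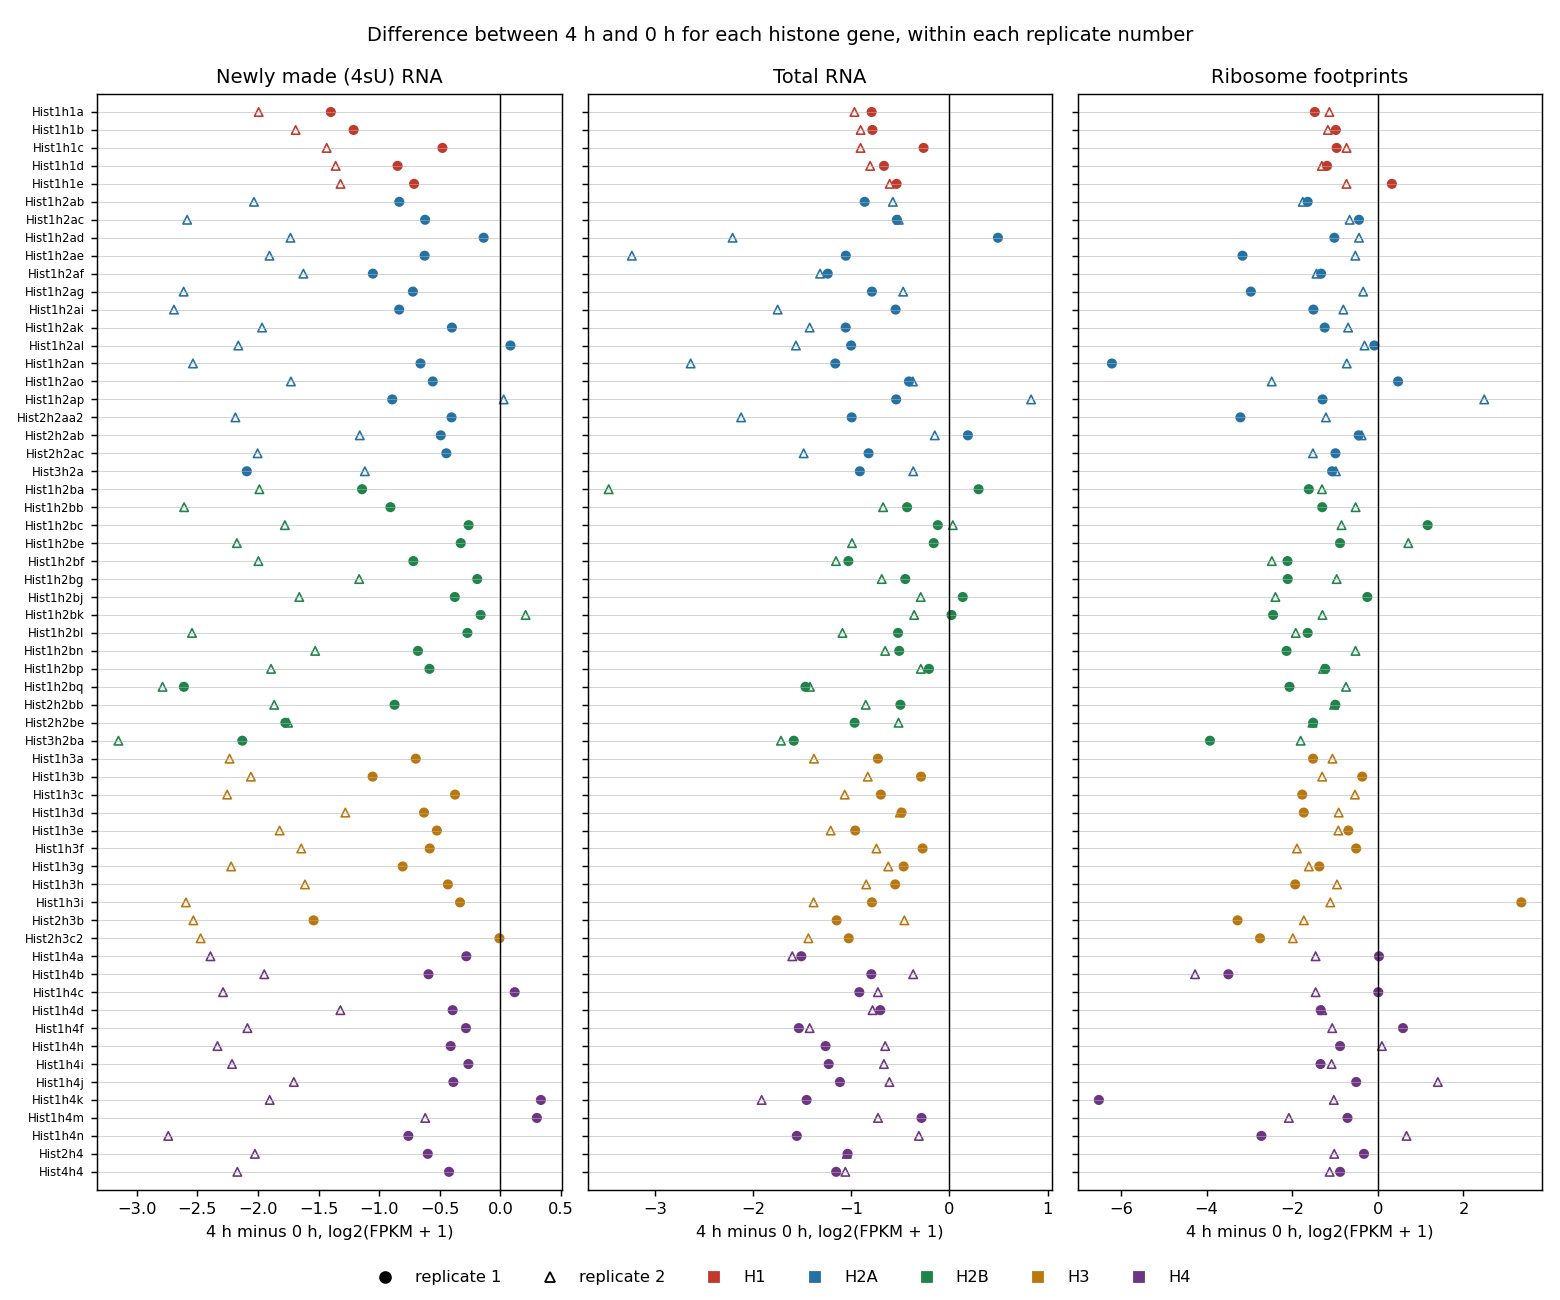
Difference between 4 h and 0 h in log2(FPKM + 1) for each histone gene, within replicate 1 (filled circles) and replicate 2 (open triangles), in NT, Total RNA and RP; colours are classes. In NT the medians are -0.58 in replicate 1 and -1.99 in replicate 2.

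The 5 linker genes, each of which encodes a somatic H1 subtype, were among the most abundant members in NT, and Hist1h1d had the highest FPKM of all 60 genes in each NT library but that of 2 h. Hist1h1d was at 3799 and 2484 FPKM at 0 h, 2462 and 1825 FPKM at 1 h, 1914 FPKM at 2 h, 1838 FPKM at 3 h, and 2111 and 968 FPKM at 4 h. In every NT library with a later time it was below the 0 h library of its own replicate number, but replicate 1 at 4 h was above replicate 1 at 3 h.

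Hist1h1a had the largest change of the linkers. In NT it was at 805 and 372 FPKM at 4 h, against 2124 and 1484 FPKM at 0 h, a change of -1.70 ± 0.64 (SE; limma adjusted p = 0.0869; 0.00394 with the replicate block). Both 4 h libraries were below both 0 h libraries. In Total RNA it was at 458 and 373 FPKM at 4 h, against 793 and 730 FPKM at 0 h. It changed there by -0.88 ± 0.27 (limma adjusted p = 0.0752; 6.15e-05 with the block, in a fit with 1 residual degree of freedom). Its footprints were at 1032 and 1423 FPKM at 4 h, against 2867 and 3122 FPKM at 0 h, and it fell by 1.30 ± 0.29 (limma adjusted p = 0.0265; 0.00548 with the block). It was the only linker called in any of the 3 kinds without the block.

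Hist1h1b was at 1083 and 648 FPKM in 4 h NT libraries, against 2509 and 2092 FPKM at 0 h (-1.45 ± 0.62, limma adjusted p = 0.118; 0.0117 with the block). Hist1h1c was at 790 and 308 FPKM at 4 h in NT, against 1100 and 834 FPKM at 0 h (-0.95 ± 0.57, limma adjusted p = 0.236; 0.0405 with the block). Hist1h1e was at 965 and 473 FPKM at 4 h in NT, against 1582 and 1181 FPKM at 0 h (-1.02 ± 0.59, limma adjusted p = 0.225; 0.0296 with the block). For these 3 genes the 4 h and 0 h libraries did not overlap. Hist1h1d changed by -1.10 ± 0.77 in NT and was not called either way (limma adjusted p = 0.301; 0.0622 with the block). Its 4 h and 0 h NT libraries did not overlap either.

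In Total RNA all 5 linkers were called with the block only, with changes of -0.57 (Hist1h1e) to -0.88 (Hist1h1a); 23.3% of all genes fell there. In RP 4 linkers were called with the block, against 26.7% of all genes, and the exception was Hist1h1e. Its footprints were at 2608 and 2506 FPKM at 4 h, against 2079 and 4169 FPKM at 0 h (-0.20 ± 0.42, limma adjusted p = 0.751; 0.621 with the block). The 0 h libraries enclose both 4 h values. The Hist1h1e model overlaps that of the H2B gene Hist1h2be by 496 bases on the same strand, so RNA reads there cannot be assigned to either by position. That overlap lies within the 1153 bases that the model holds after the Hist1h1e stem-loop, outside its coding sequence.

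**Figure D3:**
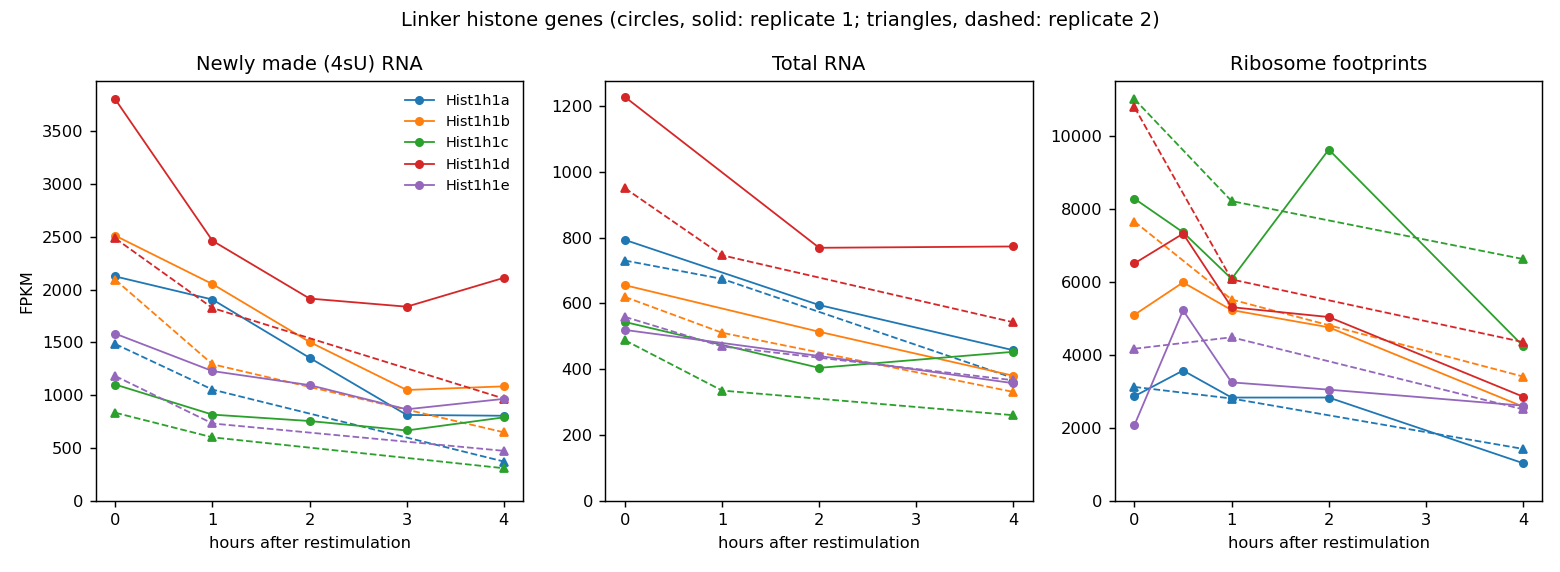
FPKM of the 5 linker histone genes over hours after restimulation in NT, Total RNA and RP, on linear axes that start at 0 and differ between panels; circles and solid lines are replicate 1, triangles and dashed lines replicate 2. Hist1h1a ends at 805 and 372 FPKM in NT and at 1032 and 1423 FPKM in RP.

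The median change between 4 h and 0 h, over both replicates, was -1.10 over 5 linkers and -1.27 over 55 core genes in NT, -0.74 and -0.82 in Total RNA, and -1.08 and -1.25 in RP. The median over all genes tested was -0.16, -0.10 and -0.10, and the difference between linker and core genes was not tested. The order of the classes differed between replicates in each kind: in NT the median was -0.85 for linkers and -0.56 for core genes in replicate 1, but -1.43 and -2.0 in replicate 2. The 4 h NT sums were 51.8% (linker) and 69.6% (core) of 0 h in replicate 1, and 34.3% and 26.6% in replicate 2. In Total RNA the medians for linkers and core genes were -0.67 and -0.79 in replicate 1 and -0.90 and -0.83 in replicate 2, and in RP they were -0.98 and -1.33, and -1.13 and -1.06. In NT linkers held 30.9% and 27.8% of the members' summed FPKM at 0 h, 30.1% and 29.9% at 1 h, 27.97% at 2 h, 30.4% at 3 h, and 24.99% and 33.2% at 4 h. In Total RNA the linker share was between 21.5% and 24.0% in all 6 libraries. In RP the share was lower in every library, between 7.08% and 10.1%. Where depth could be worked out, the steps matched coding length in RP libraries and exon length in RNA libraries. For Hist1h1d these lengths are 663 and 7425 bases. Linker shares and linker to core ratios are therefore not on the same scale in RP and in RNA. A shorter length gives a higher FPKM for the same number of reads. The reason for the lower linker share in RP was not tested. A mean linker gene was 4.57 ± 1.28 times as high as a mean core gene in 4 h NT libraries and 4.58 ± 0.49 times at 0 h (SD, n = 2 each). The ratio was 3.34 ± 0.20 at 4 h and 3.10 ± 0.07 at 0 h in Total RNA, and 1.07 ± 0.04 at 4 h and 1.02 ± 0.26 at 0 h in RP. With the median gene of each class in place of the mean the ratios were 6.33 at 4 h and 7.23 at 0 h in NT, 6.36 and 4.94 in Total RNA, and 3.61 and 3.06 in RP.

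With the short 4sU label, the linker sum at 0.5 h was 101% of that at 0 h and the core sum 67.8%, so the linker share was 41.8% at 0.5 h against 32.5% at 0 h. The median difference on the log2(FPKM + 1) scale was -0.01 for linkers, -0.50 for core genes and -0.04 for all genes. Hist1h1b was at 3008 FPKM at 0.5 h against 2721 FPKM at 0 h, and Hist1h1d at 4171 against 3971 FPKM. These are 2 libraries with no replicate, so there is no test. In RP the single 0.5 h library had a linker sum at 118.6% and a core sum at 80.8% of 0 h replicate 1. Against 0 h replicate 2 the linker sum was not higher: the 29465 FPKM at 0.5 h lay between the 24838 and 36742 FPKM at 0 h, and the linker share of 10.1% at 0.5 h was next to the 9.90% of 0 h replicate 2. At 1 h the RP linker sums were 91.4% and 73.7% and the core sums 71.3% and 76.0% of 0 h for replicates 1 and 2, so the order of linker and core differed between replicates there.

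Among the short-label libraries, 52 of 60 members were lower at 0.5 h, where 55.9% of all genes were. Of the 60, 5 were at least 2-fold lower, where 0.244% of all genes in the table were: Hist1h2bq, Hist1h2ap, Hist1h4n, Hist1h2bb and Hist1h2bc. Hist1h2bb was at 1074 FPKM at 0.5 h against 2197 FPKM at 0 h, and Hist1h2bc at 95.4 against 195 FPKM. Hist1h2ap was low, at 2.76 against 6.83 FPKM. The largest positive difference was that of Hist2h2aa2, at 198 FPKM at 0.5 h against 141 FPKM at 0 h. All 75-base windows of its transcript occur in another gene.

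The times before 4 h were compared with 0 h in the same fits; where a time has 1 library (2 h and 3 h in NT, 1 h and 2 h in Total RNA, 0.5 h and 2 h in RP), that library is assumed to vary like the other times. The 1 NT call at 2 h, the 3 at 3 h and the 1 RP call at 2 h were all lost when either 0 h library was left out. In NT no member was called at 1 h (limma; 0 members at an unadjusted p under 0.05; 0% of all genes were lower calls), 1 fell at 2 h (all genes 3.69%) and 3 fell at 3 h (all genes 10.7%). With the replicate block the counts were 2 at 1 h (all genes 5.42%), 10 at 2 h (all genes 17.7%) and 32 at 3 h (all genes 25.2%), all lower. Of all genes, 0.183%, 3.87% and 9.41% rose in NT at 1, 2 and 3 h, and 5.21%, 13.3% and 17.8% with the block. In Total RNA no member was called at 1 h or 2 h (limma; 5 and 8 members at an unadjusted p under 0.05; lower calls over all genes 0% and 0.0661%, higher calls 0% and 0.958%). With the block 5 fell and 2 rose at 1 h (all genes 9.02% lower and 1.43% higher) and 8 fell at 2 h (all genes 2.74% lower and 5.33% higher). In RP no member was called at 0.5 h or 1 h (limma; 2 and 0 members at an unadjusted p under 0.05; 0% of all genes were lower calls, and 0% and 0.14% higher ones) and 1 fell at 2 h (all genes 1.97% lower and 2.96% higher). With the block the RP counts were 0, 3 and 5 (all genes 0%, 0.548% and 9.87% lower, and 0.0322%, 1.42% and 9.53% higher). Between 4 h and 1 h, 3 members fell in NT (all genes 14.7% lower, 11.9% higher; 17 with the block, all genes 32.2% and 22%) and 2 in RP (all genes 6.42% lower, 7.65% higher; 11 with the block, all genes 19.3% and 17.5%). Those in RP were Hist1h1a and Hist3h2ba.

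Of the H2B genes, 3 of 15 fell in NT (13 with the block), 1 in Total RNA (11) and 3 in RP (10). Over all genes 18.9%, 7.02% and 12.9% fell in NT, Total RNA and RP, and 35.4%, 23.3% and 26.7% with the block, so the H2B counts without the block in NT and Total RNA were near the background. Hist2h2be, an H2B gene of the chromosome 3 cluster, was low throughout: 7.79 and 8.36 FPKM at 0 h, 5.64 and 6.07 FPKM at 1 h, 1.96 FPKM at 2 h, 1.62 FPKM at 3 h, and 1.57 and 1.78 FPKM at 4 h. Its 0 h values and those from 2 h on were well apart. It fell at 4 h (-1.76 ± 0.17, limma adjusted p = 0.00261). The calls at 2 h (-1.62, limma adjusted p = 0.0281) and 3 h (-1.79, limma adjusted p = 0.0101) each rest on 1 library, which is assumed to vary like the other times, and were lost when either 0 h library was left out. Its NT change at 4 h also differed from its Total RNA change in the fit with the block, the single member called there (-1.02 ± 0.23, limma adjusted p = 0.0475; all genes 0.277% lower).

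Hist1h2bq, another H2B gene, was at 157 and 123 FPKM at 0 h, 106 and 45.6 FPKM at 1 h, 91.0 FPKM at 2 h, 27.6 FPKM at 3 h, and 24.9 and 16.9 FPKM at 4 h in NT. Its change at 4 h was the largest of all members in NT (-2.70 ± 0.42, limma adjusted p = 0.00644), while its call at 3 h (-2.29, limma adjusted p = 0.0309) rests on 1 library and was lost when either 0 h library was left out. In Total RNA it was at 6.59 and 26.2 FPKM at 4 h, against 20.0 and 71.8 FPKM at 0 h, so the replicates differed more than the times. It changed there by -1.44 ± 0.73 (limma adjusted p = 0.222; 4.22e-08 with the block, in a fit with 1 residual degree of freedom that leans on the spread over all genes). Its footprints were at 1711 and 5900 FPKM at 4 h, against 7162 and 9891 FPKM at 0 h (-1.41 ± 0.65, limma adjusted p = 0.163; 0.0219 with the block). All of its coding 28-base windows occur in another gene, as do 95.9% of the 75-base windows of its transcripts, so its footprints cannot be assigned to it by sequence and its RNA values have the same limit over most of its length.

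Hist3h2ba, the H2B gene of the small chromosome 11 cluster, and the H3 gene Hist1h3a were the 2 members called in all 3 kinds without the block. Hist3h2ba was at 35.2 and 8.16 FPKM in 4 h NT libraries, against 157 and 80.4 FPKM at 0 h (-2.64 ± 0.77, limma adjusted p = 0.0433). In Total RNA it was at 21.3 and 10.7 FPKM at 4 h, against 65.9 and 37.2 FPKM at 0 h (-1.65 ± 0.40, limma adjusted p = 0.0398). Its footprints were at 44.5 and 119.05 FPKM at 4 h, against 690 and 418 FPKM at 0 h (-2.86 ± 0.50, limma adjusted p = 0.0135). In each kind both 4 h libraries were below both 0 h libraries. Hist1h3a was at 140 and 53.6 FPKM at 4 h, against 228 and 256 FPKM at 0 h in NT (-1.47 ± 0.45, limma adjusted p = 0.0479), and it fell by 1.05 in Total RNA and by 1.29 in RP (limma adjusted p = 0.0435 and 0.028). Over the 8978 genes tested in all 3 kinds, 5.75% fell in all 3, so these 2 of 60 were not above the background. With the block, 29 of 60 members fell in all 3 kinds, against 17.8% of all genes, among them the linkers Hist1h1a, Hist1h1b and Hist1h1c.

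The H2B gene Hist1h2bk was called in footprints and not in RNA. In NT it was at 389 and 320 FPKM at 4 h, against 436 and 277 FPKM at 0 h (0.02 ± 0.50, limma adjusted p = 0.976), and in Total RNA at 209 and 102 FPKM at 4 h, against 206 and 132 FPKM at 0 h (-0.17 ± 0.40, limma adjusted p = 0.812). In footprints it was at 4079 and 9087 FPKM at 4 h, against 22280 and 22312 FPKM at 0 h, and fell by 1.87 ± 0.52 (limma adjusted p = 0.0478). The difference between its RP and Total RNA changes was -1.70 ± 0.71 and was not called (limma, unadjusted p = 0.0418). Of its coding 28-base windows 96.3% occur in another gene, as do 72.6% of the 75-base windows of its transcript. Most of its footprints therefore cannot be assigned to it by sequence. Hist1h2bp fell in RP, at 73.0 and 57.1 FPKM at 4 h against 173 and 140 FPKM at 0 h (-1.25 ± 0.34, limma adjusted p = 0.0431). Hist1h2bc, also H2B, was at 78.8 and 53.2 FPKM at 4 h and 85.5 and 51.9 FPKM at 0 h in Total RNA, and was called in no kind without the block.

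The most abundant H2B gene in NT besides these was Hist2h2bb, with 1556 and 506 FPKM at 4 h against 2850 and 1847 FPKM at 0 h (-1.37 ± 0.81, limma adjusted p = 0.228; 0.0225 with the block). A gene model on the same strand, Gm42743, covers all 381 bases of Hist2h2bb. Hist1h2bb followed with 1213 and 302 FPKM at 4 h against 2274 and 1847 FPKM at 0 h (-1.76 ± 0.83, limma adjusted p = 0.146; 0.0118 with the block). Hist1h2be had 16019 and 14918 FPKM of footprints at 4 h, which lie between its 0 h replicates of 29579 and 9115 FPKM.

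Of the H2A genes, 5 of 16 fell in NT (13 with the block), 7 in Total RNA (13) and 1 in RP (10), against 18.9%, 7.02% and 12.9% of all genes (35.4%, 23.3% and 26.7% with the block); the RP count without the block was below that share. Hist1h2ai was at 177 and 92.8 FPKM in 4 h NT libraries, against 317 and 606 FPKM at 0 h (-1.76 ± 0.44, limma adjusted p = 0.0263). Hist3h2a was at 1.01 and 2.11 FPKM at 4 h, against 7.57 and 5.75 FPKM at 0 h (-1.60 ± 0.28, limma adjusted p = 0.0089), but its model lies inside that of Trim17 on the same strand. In Total RNA, Hist1h2ae had the largest fall, with 15.6 and 8.45 FPKM at 4 h against 33.6 and 87.9 FPKM at 0 h (-2.15 ± 0.48, limma adjusted p = 0.0324). Hist1h2an was next, at 10.1 and 7.70 FPKM at 4 h against 23.8 and 53.0 FPKM at 0 h (-1.90 ± 0.38, limma adjusted p = 0.0246). Hist2h2aa2 was at 55.3 and 51.8 FPKM at 4 h against 111 and 228 FPKM at 0 h in Total RNA (-1.56 ± 0.36, limma adjusted p = 0.0366). All 75-base windows of its transcript occur in another gene, so these values cannot be assigned to it by sequence of that length. Hist2h2ac fell in Total RNA (-1.15 ± 0.26, limma adjusted p = 0.0344) and in RP, where it was at 773 and 746 FPKM at 4 h against 1539 and 2136 FPKM at 0 h (-1.25 ± 0.31, limma adjusted p = 0.0341). Hist1h2al fell in Total RNA, at 197 and 204 FPKM at 4 h against 394 and 606 FPKM at 0 h (-1.28 ± 0.30, limma adjusted p = 0.0367), and in NT its 4 h replicate 1 value of 561 FPKM lay between the 0 h values of 529 and 875 FPKM. Hist1h2ad was called in no kind without the block. In Total RNA it was at 156 and 14.7 FPKM at 4 h, against 111 and 71.5 FPKM at 0 h. It was thus higher at 4 h in replicate 1 and lower in replicate 2. With the block it was called there as lower (limma adjusted p = 0.00447), although the replicates went opposite ways and that fit has 1 residual degree of freedom.

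Of the H3 genes, 2 of 11 fell in NT (10 with the block), 4 in Total RNA (10) and 2 in RP (7), against the same 18.9%, 7.02% and 12.9% (35.4%, 23.3% and 26.7%) of all genes; the NT count without the block was at the background. Hist2h3b had the largest NT fall of the class, with 73.3 and 24.7 FPKM at 4 h against 215 and 147 FPKM at 0 h (-2.04 ± 0.50, limma adjusted p = 0.0253). Hist1h3h, the most abundant H3 gene in RP, had 11013 and 20549 FPKM of footprints at 4 h against 42024 and 39835 FPKM at 0 h (-1.44 ± 0.56, limma adjusted p = 0.108; 0.0336 with the block). Its 4 h and 0 h libraries did not overlap. Hist1h3b was at 288 and 101 FPKM in 4 h NT libraries, against 599 and 423 FPKM at 0 h, and Hist1h3c at 356 and 126 FPKM at 4 h, against 461 and 604 FPKM at 0 h. Both were called in NT with the block only (limma adjusted p = 0.00188 and 0.0262). Hist1h3d fell in RP, at 118 and 110 FPKM at 4 h against 395 and 209 FPKM at 0 h (-1.32 ± 0.34, limma adjusted p = 0.0382). Hist1h3i had the largest positive footprint value at 4 h (1.12 ± 1.42, limma adjusted p = 0.596), from 3012 and 2712 FPKM at 4 h and 294 and 5860 FPKM at 0 h.

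Of the H4 genes, 1 of 13 fell in NT (9 with the block), 5 in Total RNA (13) and 0 in RP (6), against the same 18.9%, 7.02% and 12.9% (35.4%, 23.3% and 26.7%) of all genes; the NT and RP counts without the block were below the background. In Total RNA, Hist1h4k was at 235 and 172 FPKM at 4 h, against 645 and 648 FPKM at 0 h (-1.68 ± 0.28, limma adjusted p = 0.0162). In NT the same gene was at 557 and 111 FPKM at 4 h, against 442 and 416 FPKM at 0 h (-0.79 ± 0.73, limma adjusted p = 0.430), so the replicates lay on opposite sides of the 0 h values. Hist1h4a was at 44.6 and 51.9 FPKM at 4 h, against 129 and 159 FPKM at 0 h in Total RNA (-1.55 ± 0.25, limma adjusted p = 0.0149). Hist1h4f was at 257 and 250 FPKM at 4 h, against 745 and 674 FPKM at 0 h (-1.48 ± 0.26, limma adjusted p = 0.0171). These 3 genes had 4 h Total RNA values well below both 0 h values. Hist1h4h footprints were at 21472 and 3097 FPKM at 4 h, against 39628 and 2902 FPKM at 0 h, so replicate 1 was far above replicate 2 at both times (-0.39 ± 1.42, limma adjusted p = 0.859). Hist1h4j was the single member called in RP at 2 h (-4.60, limma adjusted p = 0.0308), from 428 FPKM in the 1 library at 2 h, against 16308 and 6627 FPKM at 0 h; at 4 h it was at 11471 and 17506 FPKM. That call assumes that the lone library varies like the other times, and it was lost when either 0 h library was left out.

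Whether the kinds of library differed in the size of the change was tested with an interaction term. No member was called for RP against Total RNA (limma; 2 members at an unadjusted p under 0.05; all genes 0%, and with the block 0.0111% lower and 0.0222% higher) or for NT against Total RNA (limma; 2 members at an unadjusted p under 0.05; all genes 0%). The median member difference was -0.30 for RP minus Total RNA and -0.42 for NT minus Total RNA, against 0.0037 and -0.08 over all genes. The members' medians depended on single libraries: they came to 0.06 without the 4 h replicate 1 RP library and 0.29 without the 4 h replicate 2 NT library. With the block, 1.69% of all genes were higher in NT than in Total RNA. At 0 h the NT level of the median member was 1.01 above its Total RNA level on the log2(FPKM + 1) scale in both replicates, and at 4 h it was 1.13 above in replicate 1 and -0.03 in replicate 2. The median over all genes was 0.38 and 0.50 at 4 h and 0.45 and 0.57 at 0 h.

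Footprints of single histone genes repeated less well than their Total RNA. In NT at 4 h 53 of 60 members were over 2-fold apart, more than in either. There 58 of 60 were higher in replicate 1, so most members were shifted in the same direction. At 0 h, 23 of 60 members differed by more than 2-fold between the RP replicates, where 6.90% of all genes did, and at 4 h 29 of 60, where 5.55% did. For Total RNA the counts were 7 at 4 h and 8 at 0 h. Pearson's r between replicates over the 60 members, on log2(FPKM + 1), was 0.83 at 4 h and 0.83 at 0 h in RP. It was 0.96 and 0.94 in Total RNA and 0.965 and 0.95 in NT. Over all genes in RP it was 0.97 and 0.96. These are descriptions across genes that share libraries and sequence. The extreme at 0 h was the H4 gene Hist1h4b, which differed by 4.98 on the log2 scale, and at 4 h Hist1h2an, at 94.0 and 11460 FPKM, which differed by 6.92.

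**Figure D4:**
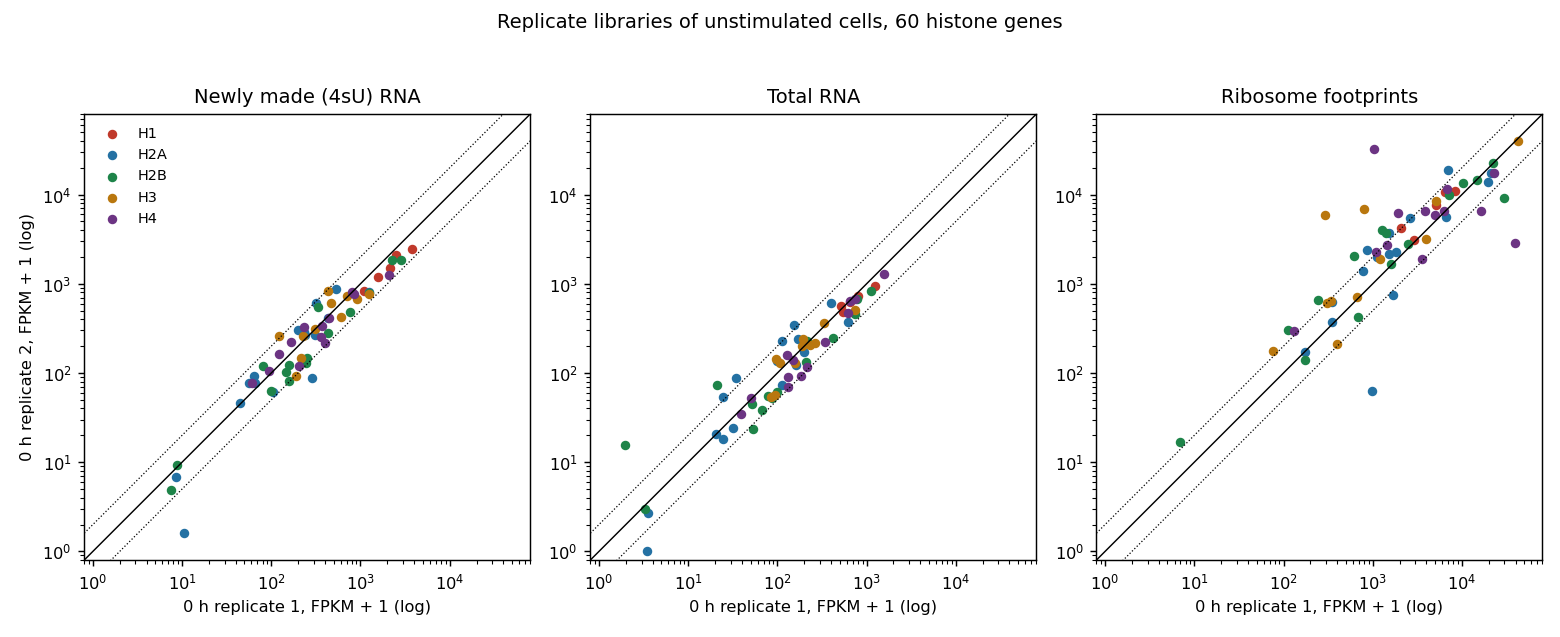
Replicate 2 against replicate 1 at 0 h for the 60 histone genes in NT, Total RNA and RP, as FPKM + 1 on log axes; the solid line is equality and dotted lines mark 2-fold. In RP 23 genes lie outside the dotted lines, in Total RNA 8 and in NT 4.

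Core histone genes are near copies of each other, which limits how far reads can be assigned to single genes. Of all 28-base windows of a coding sequence, about the length of a footprint, a median of 87.9% occurred in another gene over the 59 members with a coding model. The median was 30.7% for H1, 89.8% for H2A, 88.6% for H2B, 89.2% for H3 and 80.9% for H4. The lowest, 0.8%, was that of Hist1h1a. Of the members, 18 shared over 90% and 3 under 10%, and 4 have the same coding sequence as another member. For 75-base windows of the transcript the median shared was 42.2%. How the authors counted reads that match several genes is not given in the sources used here, so values of single core genes are uncertain. How far sums over a class and linker shares are affected depends on that rule and was not tested.

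RP replicates were set side by side by how much of the sequence is shared. At 4 h the median difference in size was 0.40 for the 3 members sharing under 10%, 0.77 for the 38 sharing 10 to 90% and 1.33 for the 18 sharing over 90%. At 0 h it was 0.22, 0.91 and 0.67, so the middle group exceeded the high group there. None of the 5 linkers differed by over 2-fold at 4 h and 1 did at 0 h, against 29 and 22 of the 55 core genes. The part of shared sequence in this scatter was not tested.

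**Figure D5:**
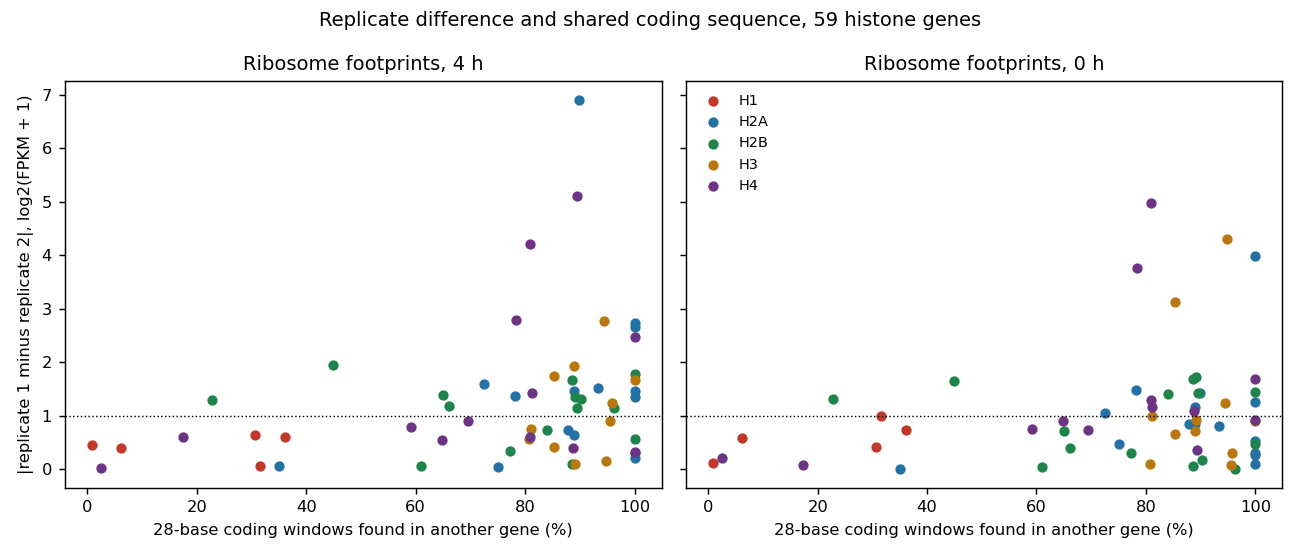
Size of the difference between RP replicates in log2(FPKM + 1) at 4 h and at 0 h against the percentage of 28-base coding windows found in another gene, for 59 histone genes coloured by class; the dotted line is 2-fold. All linkers lie at or below 36.2% sharing, and the differences above 2 all lie at higher sharing than that.

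Genes that act on histone mRNA and histone proteins were counted from lists chosen with earlier results known. Of 16 histone mRNA processing genes in the table (18 listed), 1 fell and 2 rose in NT at 4 h, 0 and 0 in Total RNA, and 0 and 1 in RP. The gene that fell was Slbp, which encodes the stem-loop-binding protein: it was at 19.0 and 17.5 FPKM in 4 h NT libraries, against 37.3 and 41.0 FPKM at 0 h (-1.06 ± 0.16, limma adjusted p = 0.00607). Its Total RNA and RP changes were -0.78 (limma adjusted p = 0.0697) and -0.75 (limma adjusted p = 0.103). Snrpd3, a subunit of spliceosomal and U7 snRNPs, rose by 0.71 in NT (limma adjusted p = 0.0219), and Ncbp1, of the cap-binding complex, by 0.55 (limma adjusted p = 0.0433).

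Of the 8 replication-independent histone genes in the table (11 listed), 4 fell in NT, 2 in Total RNA and 4 in RP, and none rose; the list's median was -1.18, -0.82 and -0.97. The largest fall was that of H2afv, an H2A.Z gene, at 2.54 and 2.67 FPKM at 4 h against 26.5 and 26.6 FPKM at 0 h in NT (-2.94 ± 0.16, limma adjusted p = 0.00164). Cenpa, the centromeric H3, fell by 1.54 and H2afy, a macroH2A gene, by 1.32 (limma adjusted p = 0.023 and 0.0037). These mRNAs are mostly polyadenylated and lie outside the clusters.

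Of 26 S phase genes, 15 fell in NT, 6 in Total RNA and 14 in RP, and none rose, with list medians of -0.89, -0.61 and -0.88. Rrm2, a ribonucleotide reductase subunit, fell by 1.38, Tyms, thymidylate synthase, by 1.38 and Cdc45, of the replicative helicase, by 1.34 in NT (limma adjusted p = 0.016, 0.00584 and 0.00361). Of 19 histone chaperone genes in the table (20 listed), 5 fell and 2 rose in NT, 2 and 1 in Total RNA, and 7 and 1 in RP. Ipo4, an importin that carries histones to the nucleus, rose by 2.49 in NT (limma adjusted p = 0.00255), while Asf1b, a chaperone of H3 and H4, fell by 1.18 and Tonsl, which binds new H4 at replication forks, fell by 0.99 (limma adjusted p = 0.0273 and 0.0112). Over all genes tested, 18.9% fell and 14.4% rose in NT, 7.02% and 6.47% in Total RNA, and 12.9% and 12.1% in RP.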

How the data were processed

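Newly transcribed (4sU) RNA, total RNA and ribosome footprints of mouse Th1 cells were analysed from 1 deposited table of FPKM values, which the authors made from reads counted with featureCounts (Subread 1.4.6-p3) on GRCm38, per the submitters' processing notes. The aligner, the annotation, the gene lengths and the rule for reads with several matches were not found in the labels. All 24 columns were used. FPKM is relative to gene length and library size, so a large set such as the histones moves the level of all other genes. Gene IDs were matched to GENCODE M21. Members and gene lists were chosen with earlier results of these data known.

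Values were tested as log2(FPKM + 1) with limma 3.58.1 (R 4.3.3), with a variance trend, genes of mean FPKM 1 or more in the kind of library, and Benjamini-Hochberg adjustment over all genes tested. The fit was tested on simulated data and recovered the changes put in. Simulated libraries varied independently of each other, so this does not cover same-numbered libraries that deviate together. Groups came from the labels. Replicate numbers pair libraries by the data, not the labels: deviations from group means correlated in 28 of 28 same-numbered pairs (0.306 to 0.79). Genes named are all linkers, the 4 most abundant of each core class, up to 6 called members with the largest change per kind, Hist1h2bq and Hist1h2bc, and up to 3 called genes per list; other names were chosen after their values were seen. Depth could be inferred for 12 libraries. Alternatives were another pseudocount, no filter, other scalings, no trend, the block, and leaving out each replicate.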

Additional observations from a re-analysis of the deposited data

How the results depend on the processing

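A pseudocount of 0.1 and no filter changed no count by over 1.5 times. Median-of-ratios scaling called 6 members in NT at 4 h, and scaling to genes outside the histone set, chosen after seeing the data, called 23 there, 2 in NT at 2 h and 1 in RP between 4 h and 1 h. No variance trend called 16 in RP at 4 h. With the replicate block the counts in NT were 2, 10, 32 and 49 at 1, 2, 3 and 4 h and 17 between 4 h and 1 h, in Total RNA 7, 8 and 52 at 1, 2 and 4 h, in RP 3, 5 and 37 at 1, 2 and 4 h and 11 between 4 h and 1 h, and 1 for NT minus Total RNA; the cause was not tested. Leaving out a replicated library gave 3 to 35 at 4 h and 1 to 12 between 4 h and 1 h in NT, 1 to 7 at 4 h in Total RNA, and 0 to 10 at 4 h and 0 to 0 between 4 h and 1 h in RP; at 2 h and 3 h in NT and 2 h in RP it gave 0. Medians over members in place of means made linker over core 6.33 at 4 h and 7.23 at 0 h in NT, 6.36 and 4.94 in Total RNA, and 3.61 and 3.06 in RP.

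Signs turned with single libraries for members that were not called in that comparison without the block. Leaving out each library in turn gave, in NT at 4 h, -2.58 to 0.70 for Hist1h2ad, -2.25 to 0.21 for Hist1h2bc, -0.30 to 0.35 for Hist1h2bk and -1.95 to 0.38 for Hist1h4k. In Total RNA it gave -2.52 to 0.81 for Hist1h2ad, -0.40 to 0.31 for Hist1h2bc and -0.68 to 0.34 for Hist1h2bk. In RP it gave -0.70 to 0.30 for Hist1h1e, -0.42 to 0.03 for Hist1h2al, -0.57 to 0.88 for Hist1h2bc, -0.94 to 0.76 for Hist1h2be, -1.04 to 3.28 for Hist1h3i, -0.70 to 0.21 for Hist1h4f, -2.28 to 1.49 for Hist1h4h and -0.20 to 1.10 for Hist1h4j. Hist1h2bk came to -0.09 in NT when scaled to genes outside the set, and with median-of-ratios scaling Hist1h2bc came to 0.076 in Total RNA and Hist1h2be to 0.002 in RP. The depth of the other 12 libraries is unknown, which limits what can be said of low members.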
